A study of Mus musculus with 6 samples.

Results

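NF-kappaB is a family of dimeric transcription factors that is measured here through 10 genes: the subunit genes Nfkb1, Nfkb2, Rela and Relb, the inhibitor genes Nfkbia, Nfkbie, Tnfaip3 and Bcl3, and the adhesion targets Icam1 and Vcam1. Every probe set of the array whose platform annotation gave one of these symbols, and no other, was taken. This gave 18 probe sets of 9 genes, out of 34945 probe sets of 18193 genes with a single symbol. Nfkb1 had no probe set named in that annotation and was not analysed here. The cells were primary dermal fibroblasts of B6 mice aged 0 to 2 days, of mixed sex, grown by explant and used at passage 4, with 1 Affymetrix array for each culture. In 3 cultures, called treated, 5 µM 5-aza-2'-deoxycytidine (decitabine, which traps DNA methyltransferases on DNA) was present for 96 hours, renewed every 24 hours, followed by 24 hours of medium without drug. The other 3 cultures, called control, were untreated, and no vehicle is named for them. Explants were made separately for each replicate, whether from 1 animal or several is not stated, and an explant can carry over cells other than fibroblasts.

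In resting cells the subunit dimers are held in the cytoplasm by inhibitor proteins of the IkappaB type, and a kinase complex, IKK, marks these inhibitors for destruction when receptors for tumour necrosis factor, interleukins or microbial products are engaged. The freed dimers then switch on cytokine, chemokine, survival and adhesion genes, and also the genes of their own inhibitors, so that the response limits itself. In dermal fibroblasts the pathway is known for chemokine output and for the adhesion molecules that bind leukocytes.

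The promoters of the members are shown first because the inhibitor and adhesion genes are textbook targets of the factor that the subunits form. RefSeq windows from 250 bases before to 50 bases after each annotated start (GRCm38.p6) were found for 7 of the 10 genes, with 10 starts in all. The lines below give 170 bases that end just before the first listed start. For Bcl3 the stretch ends 20 bases after the start. Capitals mark matches to the kappaB consensus motif or to TGGAAATTCC, a form read from the Nfkbia promoter itself, each searched on both strands.
Nfkbia (chr12:55492648-55492817, minus strand): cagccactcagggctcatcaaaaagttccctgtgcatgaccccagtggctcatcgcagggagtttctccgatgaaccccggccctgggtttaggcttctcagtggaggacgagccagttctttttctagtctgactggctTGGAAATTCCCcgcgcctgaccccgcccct
Tnfaip3 (chr10:19015411-19015580, minus strand): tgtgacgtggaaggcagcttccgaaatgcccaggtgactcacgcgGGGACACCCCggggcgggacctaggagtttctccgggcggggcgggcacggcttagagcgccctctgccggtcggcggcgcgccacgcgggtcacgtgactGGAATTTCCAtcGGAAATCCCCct
Nfkb2 (chr19:46304567-46304736, plus strand): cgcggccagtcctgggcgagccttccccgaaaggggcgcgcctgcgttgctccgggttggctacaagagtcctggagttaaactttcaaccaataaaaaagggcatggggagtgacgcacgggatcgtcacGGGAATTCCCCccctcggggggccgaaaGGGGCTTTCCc
Nfkbie (chr17:45555530-45555699, plus strand): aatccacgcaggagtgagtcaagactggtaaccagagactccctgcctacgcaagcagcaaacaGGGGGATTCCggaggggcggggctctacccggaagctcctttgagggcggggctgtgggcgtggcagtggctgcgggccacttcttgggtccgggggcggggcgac
Bcl3 (chr7:19822736-19822905, minus strand): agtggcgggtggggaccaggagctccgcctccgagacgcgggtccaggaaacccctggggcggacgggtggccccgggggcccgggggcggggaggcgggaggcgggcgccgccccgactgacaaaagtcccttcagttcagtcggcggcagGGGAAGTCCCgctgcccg
Icam1 (chr9:21015770-21015939, plus strand): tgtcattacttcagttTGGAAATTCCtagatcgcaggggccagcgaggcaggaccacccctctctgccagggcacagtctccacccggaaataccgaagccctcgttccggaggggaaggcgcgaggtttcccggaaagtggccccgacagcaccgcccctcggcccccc
Rela (chr19:5637371-5637540, plus strand): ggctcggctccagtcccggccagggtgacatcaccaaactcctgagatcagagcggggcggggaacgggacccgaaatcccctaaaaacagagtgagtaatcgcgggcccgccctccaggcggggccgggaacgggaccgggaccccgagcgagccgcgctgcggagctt
The kappaB consensus was found in 7 of the 10 windows and in 5 of the 7 genes, against 8.46% of all 32851 promoter windows of that table. The third Nfkb2 window counts only through a site in its overlap with the second. The consensus is rich in G and C. Member windows held 47.0% to 71.3% G and C, against a median of 52.67% for all windows, and the comparison was not matched for this. The first starts of Nfkb2 and Tnfaip3 each had 2 stretches of the consensus. In Nfkb2 these lay 39 and 11 bases before the start, and the first is made of overlapping matches. In Tnfaip3 they lay 125 and 12 bases before it. Nfkbia had a match 29 bases before its start, Nfkbie 106 bases before, and Bcl3 at base 3 of the transcript. The form taken from Nfkbia, where it overlaps the consensus match, was found also in Icam1 (154 bases before the start) and Tnfaip3 (24 bases before it), and in 0.082% of all windows. An exact run of bases has fewer possible matches than the consensus, so this share cannot be set beside the 8.46%. Icam1 had no consensus match in its window. The window of Rela held neither form. A match is a run of letters, and binding at these places was not measured here. CpG dinucleotides, the sites that DNA methyltransferases act on, stood at 0.70 of the number expected from base composition in the median member window (range 0.37 to 0.91), against 0.38 in the median window of the whole table. From 11.6% to 51.4% of all windows had a higher ratio than a given member window, so such ratios are common. Nfkb2 and Tnfaip3 enter the member median with more than 1 window. The methylation of the member windows was not analysed here.

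**Figure D1:**
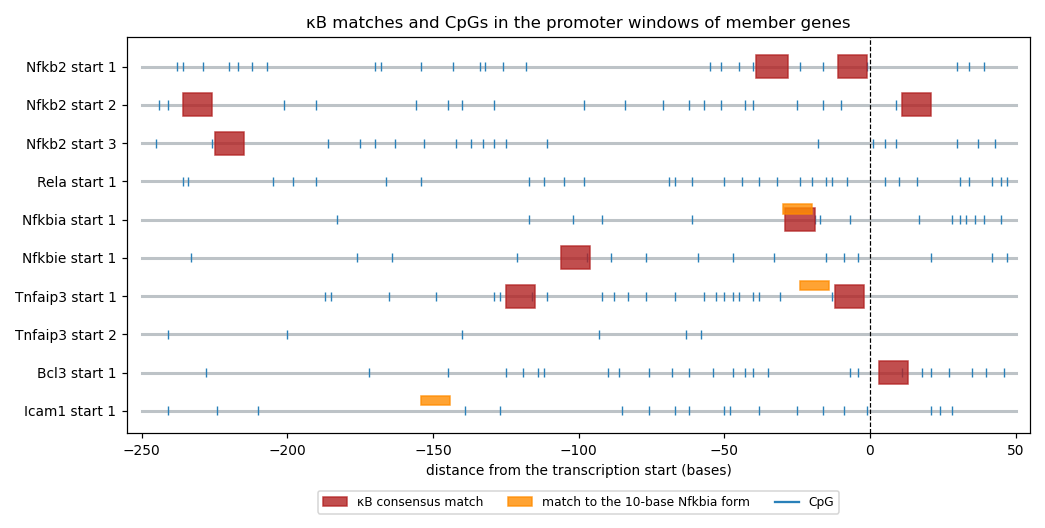
Promoter windows of the member genes, with the distance from the annotated start in bases on the x axis and 1 line for each of 10 starts. Red boxes are kappaB consensus matches, orange boxes are matches to the form given in the text and blue ticks are CpG dinucleotides. The windows of Nfkbia and of the first starts of Tnfaip3 and Nfkb2 have a match within 39 bases before the start, and those of Rela and of the second Tnfaip3 start have none.

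By the brightest tested probe set of each gene, the inhibitors Tnfaip3 (log2 change 2.16) and Nfkbia (1.02) and the adhesion molecule Icam1 (1.78) rose, Vcam1 (0.55) and Rela (0.32) rose by less, and no member fell by the test. Nfkb2 was called higher (1.24) at 1 of its 2 probe sets, the dimmer, and Vcam1 at 1 of 3. Of the 18 member probe sets, 15 of 7 genes were bright enough to be tested. Testing required a signal above the array median on 3 or more of the 6 arrays. The test was limma with an intensity trend on log2(signal + 9.66) after scaling each array, and a probe set is called when its Benjamini-Hochberg adjusted p over all 23388 tested probe sets is under 0.05. By this rule 10 of the 15 member probe sets were called higher in treated cultures and 0 lower, where 38.7% of all tested probe sets were called, 18.4% higher and 20.3% lower. At an unadjusted p under 0.05, 1 was lower (Bcl3). Icam1 was tested through the treated arrays alone. Nfkb2 at 1425902_a_at and Tnfaip3 at 1450829_at, above the median on 1 control and 3 treated arrays, also needed high treated signals. With no filter the limma adjusted p was 0.0675 for this Nfkb2 probe set and 0.00159 for this Tnfaip3 probe set. With each gene represented by its brightest tested probe set, 5 of 7 were called higher and 0 lower, against 19.5% and 21.6% (41.1% in all) of 12194 genes, and the median log2 change was 0.55 against -0.00 for all genes. The groups did not overlap in 9 of the 15, with all treated arrays above all controls (24.1% of all tested probe sets), and 1 lay wholly below (26.2%). With no filter on dim probe sets, 8 of the 18 were called higher and 0 lower, where 18.9% of all 45037 were called, 9.07% higher and 9.8% lower. Of the 18, 9 lay wholly above the controls (16.8% of all 45037) and 2 wholly below (17.3%). The number of genes called higher was 3 without treated array 2 or 3. There Rela lost its call and Icam1, which lies above the median on treated arrays alone, could no longer pass the filter.

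**Figure D2:**
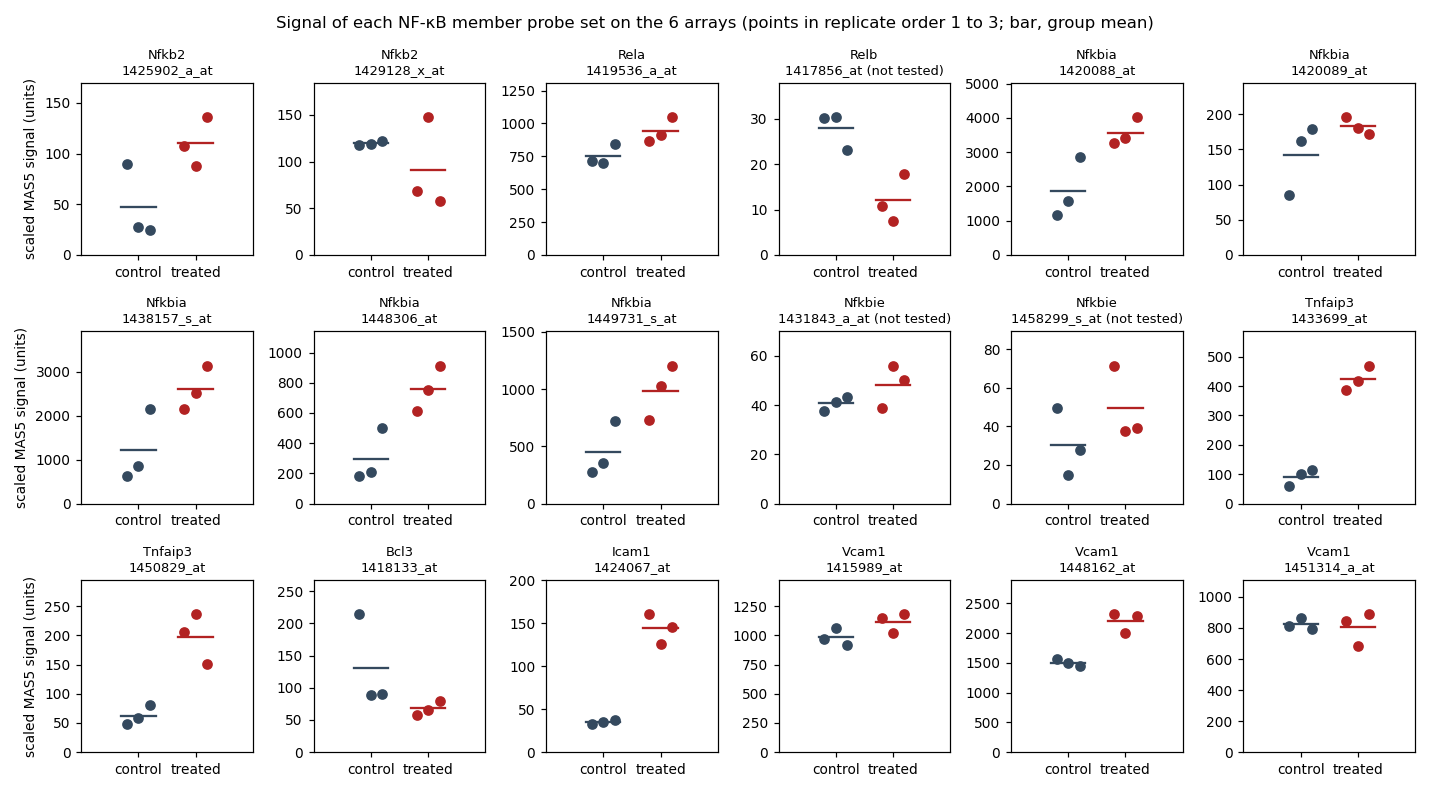
Scaled MAS5 signal (y axis, signal units, from 0) of the 18 member probe sets on 3 control and 3 treated arrays, with a bar at each group mean. The treated points of Tnfaip3 and Icam1 lie far above the controls, control array 3 is the highest control at each Nfkbia probe set, and the Vcam1 panels differ from each other.

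Among the inhibitors, Tnfaip3 changed most. It encodes a ubiquitin-editing enzyme that shuts off signalling from tumour necrosis factor and Toll-like receptors. Its brighter probe set, 1433699_at, read 58.6, 99.6 and 112.6 signal units in controls 1, 2 and 3. In treated cultures 1, 2 and 3 it read 386.4, 417.7 and 468.5. The ratio of the group means was 4.70, the log2 change was 2.16 ± 0.21 (SE; limma adjusted p = 4.06e-05), and the groups were far apart. The dimmer probe set, 1450829_at, went from 48.0, 59.3 and 80.2 to 206.0, 236.0 and 151.1, a log2 change of 1.53 ± 0.22 (limma adjusted p = 0.00052). Both probe sets put every treated culture above every control. By its brighter probe set Tnfaip3 ranked 158 among 12194 genes ordered from the highest change, and it kept its call under each of the 14 other settings, from log2 1.87 to 2.32.

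Nfkbia encodes IkappaB-alpha, the inhibitor that is degraded and made again in each round of the response. The probe set 1448306_at read 181.7, 207.6 and 497.8 on controls and 612.1, 754.1 and 911.5 on treated arrays, and the log2 change was 1.46 ± 0.32 (SE; limma adjusted p = 0.00537). The brightest of its 5 probe sets, 1420088_at, read 1175, 1566 and 2871 on controls and 3255, 3422 and 4016 on treated arrays, which is a log2 change of 1.02 ± 0.26 (adjusted p = 0.0122). In both, all treated arrays lay above all controls, and control 3 lay nearer to the treated arrays than to the other controls. Control and treated means were 1210 ± 820 (SD, n = 3) and 2595 ± 497 at 1438157_s_at, with a log2 change of 1.28 ± 0.37 (SE; limma adjusted p = 0.0204). They were 451.7 ± 240 and 987 ± 237 at 1449731_s_at, with 1.20 ± 0.31 (limma adjusted p = 0.0125). The fifth and dimmest, 1420089_at, was not called, with a log2 change of 0.40 (95% interval -0.13 to 0.93; adjusted p = 0.213), and its groups overlapped. The names of 1438157_s_at and 1449731_s_at mark probes that can match transcripts of more than 1 gene. The call of 1438157_s_at was lost without control 1, control 2 or treated 3 (adjusted p from 0.0606 to 0.0676).

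Bcl3 encodes an atypical IkappaB protein that sits in the nucleus on p50 or p52 dimers and can help as well as hinder transcription. Its probe set read 213.8, 88.5 and 90.7 on controls and 57.9, 65.9 and 79.8 on treated arrays. All treated arrays lay below all controls, but control 1 was far above the other controls, and the log2 change of -0.76 ± 0.31 (SE) was not called (limma adjusted p = 0.0828; 95% interval -1.45 to -0.06). Without control 1 it was -0.37. Nfkbie, the gene of IkappaB-epsilon, was too dim to be tested at both of its probe sets. At 1431843_a_at its signals ranged from 37.8 to 43.5 on controls and from 39.0 to 56.0 on treated arrays, and at 1458299_s_at from 14.8 to 49.4 and from 37.8 to 71.4. In a fit with no filter on dim probe sets the log2 changes were 0.19 (95% interval -0.41 to 0.79) and 0.60 (-0.31 to 1.51), and neither was called (adjusted p = 0.712 and 0.386).

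**Figure D3:**
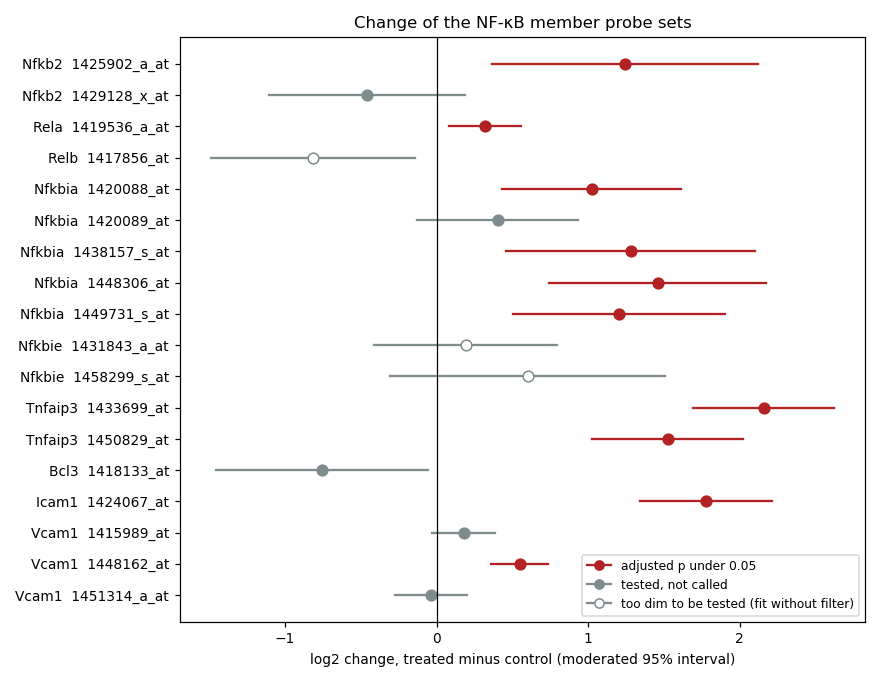
Log2 change, treated minus control, of the 18 member probe sets (x axis) with moderated 95% intervals. Red marks an adjusted p under 0.05, grey a tested probe set that was not called and open symbols those too dim to be tested. Tnfaip3 and Icam1 have the highest calls with narrow intervals, the Nfkbia intervals are wide, and 1 of the 3 Vcam1 intervals excludes 0.

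Among the subunits, Rela was called at its only probe set and by a small margin. It encodes p65, the subunit that carries the main activation domain of the classical dimer. The signals were 713.3, 700.9 and 845.5 on controls and 867.2, 914.2 and 1047 on treated arrays, so that all treated arrays lay above all controls, the lowest of them just above control 3. The log2 change was 0.32 ± 0.11 (SE; limma adjusted p = 0.0382). The call was lost without control 1, control 2, treated 2 or treated 3 (log2 change 0.24 to 0.34; adjusted p from 0.0701 to 0.131), and also without scaling (adjusted p = 0.54), with no filter (0.0635) and with no intensity trend (0.0928).

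Nfkb2 encodes p100, which is both an inhibitor and the precursor of the p52 subunit of the non-canonical pathway, and its probe sets went apart. At 1425902_a_at controls read 89.2, 27.3 and 24.5 and treated arrays 107.2, 87.7 and 135.8. Treated array 2 lay just below control 1, so the groups overlapped, and the log2 change was 1.24 ± 0.39 (SE; limma adjusted p = 0.0307). At the brighter 1429128_x_at, whose name marks probes that can match other sequences, controls read 117.8, 119.2 and 122.0 and treated arrays 68.4, 147.5 and 58.2. Here the controls were tight and the treated arrays scattered to both sides of them, and the log2 change was -0.46 ± 0.29 (adjusted p = 0.244). The difference between these changes was 1.70 on the log2 scale (exact permutation test over arrays, two-sided, p = 0.2, where 3 against 3 cannot go below 0.1). The call at 1425902_a_at was lost without control 2, control 3, treated 1 or treated 3 (adjusted p from 0.075 to 0.102), with no filter (0.0675) and with no intensity trend (0.0548). At 1429128_x_at a lower call appeared without treated 2 (log2 change -0.83; adjusted p = 0.0104).

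Relb encodes the subunit that pairs with p52 in the non-canonical pathway. Its probe set was below the median of every array and was not tested. The signals were 30.2, 30.3 and 23.2 on controls and 10.7, 7.53 and 17.8 on treated arrays, with all treated arrays below all controls. All lay near or not far above the constant of 9.66 added before taking logs, and in the fit with no filter the log2 change was -0.81 (95% interval -1.49 to -0.14; limma adjusted p = 0.0977). Of all 45037 probe sets, 17.3% lay wholly below the controls in this way.

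Of the adhesion targets, Icam1 rose strongly. It encodes a cell surface protein that binds the leukocyte integrins LFA-1 and Mac-1. Its single probe set read 32.3, 35.3 and 37.5 on controls and 160.3, 126.5 and 145.3 on treated arrays. The ratio of the means was 4.12 and the log2 change 1.78 ± 0.19 (SE; limma adjusted p = 9.09e-05). Its control signals lay below the median of their arrays, so Icam1 entered the test through the treated arrays alone, and a rise was a condition of being tested. In the fit with no filter, which has no such condition, the same change was called (limma adjusted p = 0.00036), where 9.07% of all probe sets were called higher.

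Vcam1, the ligand of the integrin VLA-4, had high signals in untreated cells and gave a different answer at each probe set. At 1448162_at controls read 1564, 1497 and 1446 and treated arrays 2314, 2009 and 2289, with no overlap, and the log2 change was 0.55 ± 0.08 (SE; limma adjusted p = 0.000656). At 1415989_at controls read 971.5, 1066 and 920.4 and treated arrays 1152, 1020 and 1179. The groups overlapped there, and the change of 0.18 was not called (95% interval -0.03 to 0.39; adjusted p = 0.161). At 1451314_a_at controls read 814.0, 862.9 and 791.6 and treated arrays 842.8, 687.0 and 887.0, a change of -0.04 (95% interval -0.28 to 0.20; adjusted p = 0.814). The changes at 1448162_at and 1451314_a_at differed by 0.59 on the log2 scale, and on every treated array the log2 difference between these probe sets was larger (1.36 to 1.53) than on any control (0.79 to 0.93; two-sided exact permutation p = 0.1, the lowest value 3 against 3 can give). Each of the 3 pairs of Vcam1 probe sets had a p of 0.1 in this test, and over all 15 pairs of tested probe sets within Nfkb2, Nfkbia, Tnfaip3 and Vcam1 the smallest p was also 0.1, with no adjustment that could make it pass. The transcripts that each probe set matches were not analysed here. Without scaling the call at 1448162_at was lost (log2 change 0.47; adjusted p = 0.0988).

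Control array 3 stood apart for Nfkbia and for several other genes of quick responses. At 1420088_at it lay 1.08 on the log2 scale above the mean of controls 1 and 2, and the SD of the controls was larger than at 96.8% of tested probe sets. Among the 7 tested members control 3 was the highest control in 5, against 32.0% of all tested genes, and for Icam1, Tnfaip3 and Rela the gap was 0.12, 0.50 and 0.25. In the other lists of NF-kappaB genes the largest gaps were those of the chemokine Cxcl1 (296.3, 562.0 and 1035 on controls; log2 gap 1.32), the nuclear IkappaB gene Nfkbiz (520.1, 838.0 and 1480; 1.15), the cytokine Il6 (155.9, 292.3 and 459.5; 1.07) and Il1b (53.6, 57.5 and 123.9; 1.03). A gap over 1 was found in 3 of 30 other target genes and in 0.746% of all tested genes. These genes were picked after their values were seen. Without control 3 the log2 change of Nfkbia at 1420088_at was 1.38.

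**Figure D4:**
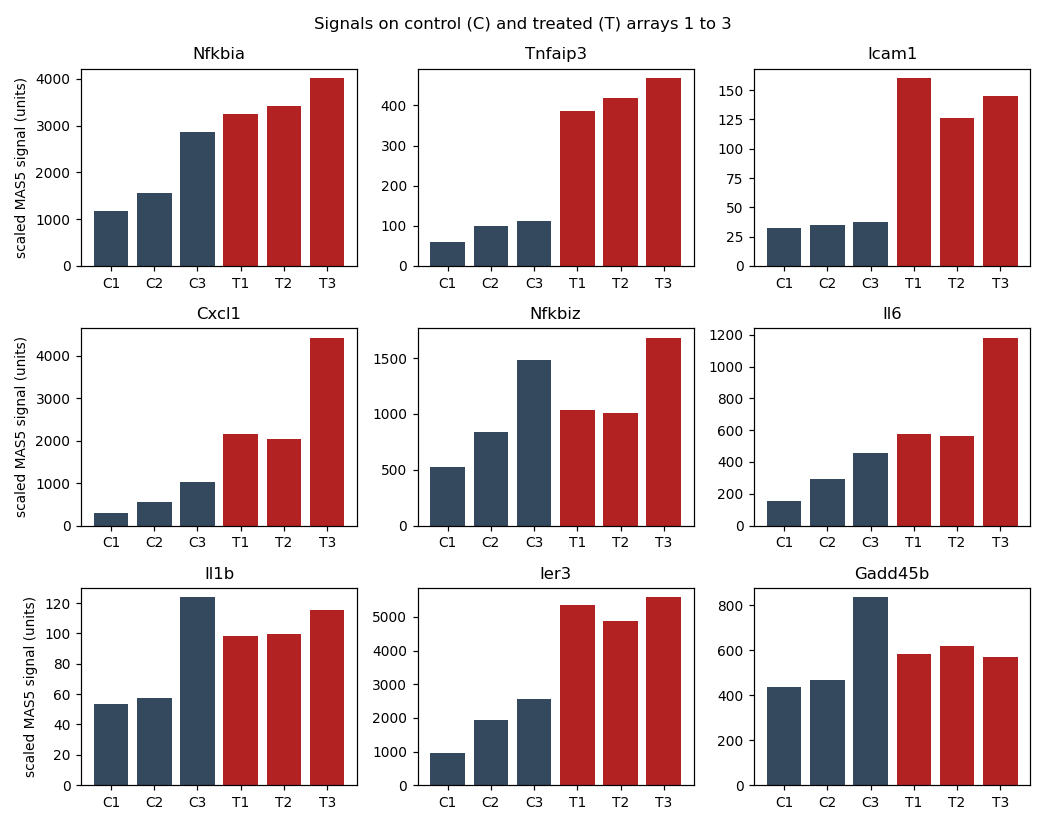
Scaled MAS5 signal (y axis, signal units, bars from 0) on control arrays C1 to C3 and treated arrays T1 to T3 of Nfkbia, Tnfaip3, Icam1 and the 6 pathway genes with the largest gap of control 3 over the other controls. Control 3 is the highest control in every panel, and the treated bars of Tnfaip3 and Icam1 exceed every control.

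The kinases that act above the members moved in both directions. Of 8 tested genes of IKK and its upstream kinases 3 rose and 1 fell, with a median log2 change of 0.20, where 19.5% of all genes rose and 21.6% fell. Irak2, a kinase of the interleukin-1 and Toll-like receptor pathway, changed by 0.99 ± 0.09 (SE; limma adjusted p = 3.15e-05). Ikbkg, the regulatory subunit of IKK, changed by 0.91 ± 0.16, and 3 of its 5 other tested probe sets were also called higher. Map3k7, the TAK1 kinase that activates IKK, rose (0.67 ± 0.14), and Tbk1, an IKK-related kinase, fell (-0.49 ± 0.10). Among their other tested probe sets, 1 of 4 for Map3k7 was called higher and 0 of 1 for Tbk1 was called. Of 18 adaptors and ubiquitin ligases 4 fell, near the 21.6% of all genes, and 1 rose, with a median of 0.01. The TAK1 partners went apart, with Tab1 (-1.93 ± 0.27) and Tab2 (-0.49 ± 0.08) lower and Tab3 (0.68 ± 0.16) higher, and the ubiquitin ligases Birc3 (-0.76 ± 0.19) and Birc2 (-0.38 ± 0.11) fell. Tab1 lay below the median of every treated array (15.8, 20.6 and 15.9), so a fall was a condition of its being tested, and with no filter its adjusted p was 0.00112. The call of Birc2 was lost without control 1, control 2, treated 1 or treated 2, and the falls numbered 2 without control 1 or control 2.

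The remaining subunit gene, Rel, and other negative regulators were measured in 14 tested genes, of which 5 rose and 2 fell (median 0.06; 19.5% and 21.6% of all genes). Cyld, a deubiquitinase that restrains the pathway, changed by 0.74 ± 0.14 (SE; limma adjusted p = 0.00264). Nfkbib, which encodes IkappaB-beta, changed by 0.53 ± 0.11, the deubiquitinase Otud7b by 0.46 ± 0.11 and the adaptor Tank by 0.34 ± 0.09. Other tested probe sets were called higher for Cyld (1 of 2) and Otud7b (2 of 3), and not for Tank (0 of 1). The fifth riser was Zc3h12a, an RNase that destroys cytokine mRNAs, not called with no filter (adjusted p = 0.0553). Irak3, an inhibitory member of the IRAK family, fell (-1.47 ± 0.21), as did N4bp1 (-0.34 ± 0.10), although the 2 other tested probe sets of N4bp1 were not called. Without control 2, treated 1 or treated 2 only 1 of these genes fell.

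Of 12 tested receptor genes around the pathway, including a decoy, 4 rose and 1 fell, against 19.5% and 21.6% of all genes. The median was 0.05, and with no filter 2 rose. Tnfrsf12a, the receptor of TWEAK, changed by 1.98 ± 0.09 (SE; limma adjusted p = 4.92e-07) and the decoy receptor Tnfrsf11b by 0.66 ± 0.13. Tlr3 (0.97) and Tlr4 (0.50) were near the threshold (adjusted p = 0.0347 and 0.0458). Tlr3 lost its call without control 2 or control 3 and Tlr4 without any control, treated 1 or treated 2. Neither was called with no filter (0.0724 and 0.0835) or without scaling (0.0795 and 0.286), and Tlr3 was tested through the treated arrays alone. The risers numbered 2 without control 2, control 3, treated 1 or treated 2. Il1r1, the signalling receptor of interleukin-1, read 1295, 1135 and 1228 on controls and 180.4, 45.0 and 216.3 on treated arrays, and fell by 3.21 on the log2 scale (SE 0.43; adjusted p = 0.00033).

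Most of the other textbook targets rose. Of 30 tested target genes outside the members, 24 rose and 1 fell, against 19.5% and 21.6% of all genes. The median log2 change of the 30 was 1.60 against -0.00 for all genes. Of the 30, 4 (Ccl20, Cxcl10, Il1a and Csf3) lay below the array median in all controls, so that only a rise let them be tested. Cxcl2 and Mmp13, above the median on 1 control and 3 treated arrays, also needed high treated signals to be tested. Both were called with no filter (limma adjusted p = 0.00902 and 0.00071). With no filter 25 of 37 rose and 1 fell, with a median of 1.56. Of all probe sets, 9.07% were then called higher and 9.8% lower. The chemokines Ccl20 (4.22 ± 0.28, SE) and Ccl2 (3.47 ± 0.12), the macrophage growth factor Csf1 (1.78 ± 0.07) and the cyclin Ccnd1 (1.56 ± 0.09) had the smallest p-values. The pattern recognition protein Ptx3 fell (-0.73 ± 0.12). Several of these genes are known also to answer to other factors, and the list was drawn up with results of these arrays known, so its count is no independent evidence of direction.

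Of 20 other adhesion molecules 6 rose and 4 fell, against 19.5% and 21.6% of all genes, and the median was 0.06. The hyaluronan receptor Cd44 changed by 1.76 ± 0.09 (SE), Mcam by 2.56 ± 0.19, and the junction proteins F11r and Jam2 by 1.21 ± 0.13 and 1.28 ± 0.15. The mesenchymal cadherin Cdh11 (-1.10 ± 0.10), Ncam1 (-0.81 ± 0.11), Thy1 (-0.39 ± 0.10) and Cd9 (-0.29 ± 0.08) fell, the last not called without control 1, control 2 or treated 2. Among the leukocyte integrin genes that pair with Icam1, Itgam lay below the median of every array, and neither Itgal nor Itgb2 was bright enough to be tested. Itgb2, the shared beta chain, read 15.5, 47.4 and 24.4 on controls and 50.5, 80.8 and 65.8 on treated arrays, with no overlap. Of all probe sets, 16.8% lay wholly above the controls in this way, and with no filter Itgb2 was not called (limma adjusted p = 0.089). Itgax was tested and not called (log2 change 0.18; adjusted p = 0.6). Of the 4 tested integrin partner genes, Itgb1, the beta chain of VLA-4, rose (0.73 ± 0.08). Of its 3 other tested probe sets 2 were called higher and 1 lower. Itga4, the alpha chain of VLA-4, was not called (log2 change 0.47, adjusted p = 0.305).

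**Figure D5:**
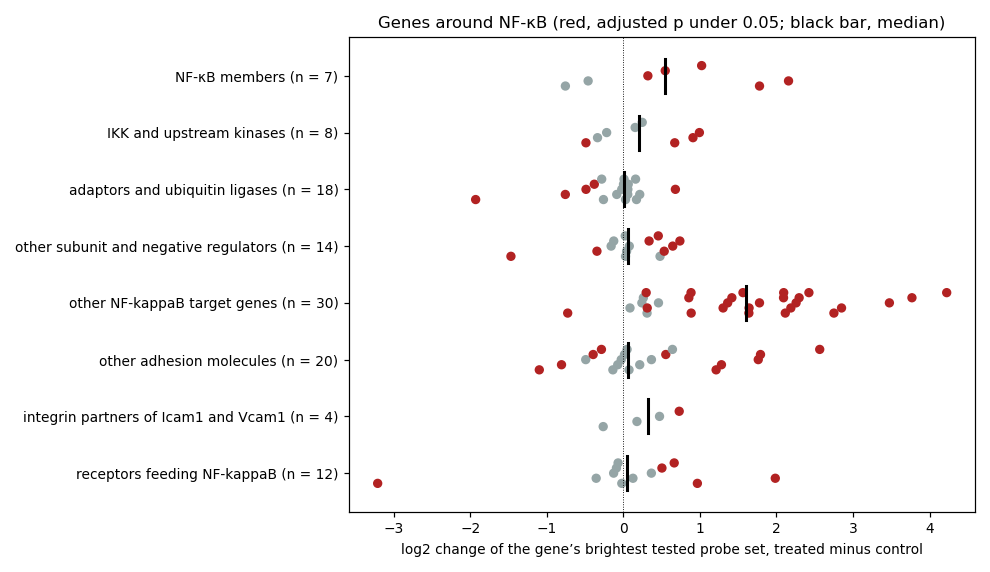
Log2 change, treated minus control, of the brightest tested probe set of each gene (x axis) for the 7 tested members and for 7 lists of genes around NF-kappaB, with a black bar at each median. Red points have an adjusted p under 0.05. The other target genes have a median of 1.60, the members 0.55, and the medians of adaptors, regulators, receptors and other adhesion molecules are near 0.

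Markers of the cells themselves and of other cells stand beside these results. Of 12 fibroblast markers 10 fell and 1 rose, S100a4, where 21.6% of all genes fell and 19.5% rose. The summed signal of these markers went from between 61340 and 68010 on controls to between 32640 and 39090 on treated arrays. In bulk RNA fewer cells of a type and less RNA per cell cannot be told apart. Since endothelial cells and leukocytes carry Icam1 or Vcam1, their markers matter most here. Of 12 endothelial markers on the array 7 were tested, of which Esam and Cdh5 were called higher and Tek lower. Each of these 3 passed the filter only through the group where it was high, and with no filter Esam alone was called (adjusted p = 0.00193, against 0.09 for Cdh5 and 0.0699 for Tek). Their summed signal ranged from 547.2 to 658.6 on controls and from 683.5 to 809.5 on treated arrays, and Pecam1, Tie1 and Vwf lay below the median of every array. Of 14 leukocyte markers 6 were tested and Cd68 rose, the summed signal ranged from 881.5 to 1066 and from 1121 to 1406, and 6 markers, Ptprc and Coro1a among them, lay below every array median. Adgre1, Csf1r, Lyz2 and Laptm5 lay above every array median and were not called at their brightest probe sets, though 1 of 2 other Csf1r probe sets was called higher. Fcer1g was tested and not called (log2 change 0.69, adjusted p = 0.0572). Ptprc, Cd68, Fcer1g, Tyrobp, Coro1a and Itgb2 lay wholly above the controls, as did 16.8% of all probe sets. Laptm5 lay wholly below them, as did 17.3%. With no filter Cd68 and Coro1a were called higher (limma adjusted p = 0.0183 and 0.0466). No marker of these lists was listed at 0. Of 4 tested keratinocyte markers 1 rose (Dsp), with summed signals of 379.9 to 449.2 and 569.0 to 925.9. Dsp was tested through the treated arrays alone (adjusted p = 0.0011 with no filter), and Krt14 and Trp63 lay below every array median. Most of the higher keratinocyte sum is Dsp, at 16.74, 37.55 and 23.41 on controls and 319.5, 386.1 and 124.5 on treated arrays. Of 6 tested melanocyte markers 1 fell (Pmel, adjusted p = 0.0768 with no filter; summed signal 540.2 to 693.7 and 528.1 to 718.3). Of 6 tested pericyte markers Mcam and Des rose and Abcc9 fell (adjusted p = 0.0619 with no filter). The summed signals were 576.2 to 709.3 on controls and 999.5 to 1139 on treated arrays. The higher sum rests on Mcam, which read 115.8, 84.05 and 68.6 on controls and 648.5, 595.7 and 468.8 on treated arrays. Mcam is also among the adhesion molecules above, and the other tested probe set of Des was not called. Among the probe sets for RNA quality, the 3' signal of Actb divided by its 5' signal averaged 1.26 ± 0.01 (SD, n = 3) over control and 1.16 ± 0.02 over treated arrays (two-sided p = 0.1 by exact permutation). That p is the lowest 3 against 3 can give, and every treated array lay below every control (1.141 to 1.179 against 1.255 to 1.275). The same ratio of Gapdh was 0.739 ± 0.0155 and 0.764 ± 0.0242 (exact permutation p = 0.2). The part of these differences in the changes of the members was not tested.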

How the data were processed

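Biotin-labelled RNA of each of the 6 cultures was hybridised to its own Affymetrix array, per the labels' protocols. The deposited values are MAS5 signal intensities on a linear scale, 1 for each probe set and array; the submitters' processing notes name MAS5, with no version, and neither a target intensity nor detection calls were used here. The 2% trimmed means of the deposited intensities ranged from 149.2 to 223.9, so each array was scaled to 193.2, and log2(signal + 9.66) was taken, the constant being 0.05 of that mean. Folds of dim probe sets are understated on this scale, and low signals were not separated from background. The 64 control probe sets were left out, and 23388 of 45037 probe sets passed the filter given in the report. The groups were compared in limma (lmFit, then eBayes with trend), version 3.58.1 (R 4.3.3), two-sided, with group as the only term. The fit was tested on simulated arrays. The brightest tested probe set stood for its gene. All probe sets of the members were named, and from each list up to 4 genes called in each direction with the smallest p; genes outside this rule were chosen after their values were seen. Promoter sequences are RefSeq's (GRCm38.p6). The members, lists and tests were chosen with earlier results of these data known. Groups came from the sample titles. Alternatives were other scalings, constants, filters, no trend, a replicate block and each array left out. The number of arrays limits the precision.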

Additional observations from a re-analysis of the deposited data

How the results depend on the processing

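Of the 15 tested member probe sets, those of Tnfaip3, Icam1 and 1420088_at, 1448306_at and 1449731_s_at of Nfkbia kept their calls in every alternative in which they could be tested, and the calls of Rela and of Nfkb2 were the most easily lost, as given above. Over 207 values of member probe sets under alternatives, 186 kept direction and call, 18 lost the call, 2 gained one and 1 changed sign, Vcam1 at 1451314_a_at, which was not called and ran from -0.11 to 0.0715 with 1 array left out (0.0715 without treated array 2). Without scaling, 5019 probe sets were called in place of 9040 (1977 in place of 4297 higher, 3042 in place of 4743 lower), 3 member genes were called higher and 1 lower (Bcl3, -0.82, adjusted p = 0.0441), 1 member probe set was called lower, and 8 in place of 13 pathway genes were lower. Leaving out each array in turn gave 3 to 5 member genes higher and 0 to 1 lower, and 6 to 9 member probe sets higher and 0 to 1 lower, with 6 without treated array 3. Without the probe sets whose names end in _x_at or _s_at 6 member genes were called higher. In the lists, no scaling gave 0 falls of kinases (1 otherwise), 0 rises of adaptors (1), 0 rises and 1 fall of negative regulators (5 and 2), 1 rise of receptors (4) and 2 falls of adhesion molecules (4). With no filter 2 receptors rose, with no intensity trend 2 adhesion molecules fell, and without control array 2 2 kinases fell. Represented by the median over its tested probe sets, Nfkb2 changed by 0.39 in place of -0.46 and Vcam1 by 0.18 in place of 0.55. Same-numbered arrays deviated together with correlations of 0.19, 0.17 and 0.07, against -0.15 to -0.02 for differently numbered arrays. Deviations were taken from each group mean, so positive values for some arrays force negative values for others. The negative values are therefore no separate contrast. The array numbers were not taken as pairs because the labels do not say that they mark a shared explant. With a replicate block 9541 probe sets, 5 member genes and 10 member probe sets higher, and 44 pathway genes higher and 13 lower were called, against 9040, 5, 10, 44 and 13 without it. Of the genes named by the rule, the block ended the call of Tlr3 alone (adjusted p = 0.0516), and 3 in place of 4 receptors and 6 in place of 5 negative regulators were higher.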

Other observations

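The interleukin-1 axis held opposite values at its ligand and its receptor. Il1a, an interleukin-1 ligand, read 6.73, 12.2 and 8.55 signal units on controls and 104.0, 116.8 and 160.3 on treated arrays, a log2 change of 2.85 ± 0.30 (SE; limma adjusted p = 7.35e-05, and 0.0002 with no filter), while Il1r1, its receptor, fell on the same arrays as given above. Il1a lay below the median of every control array, so that a rise was a condition of its being tested. Il1b was not called (log2 change 0.46; adjusted p = 0.235), and its highest signal was that of control array 3. Selp, the P-selectin known from endothelium and platelets, read 30.9, 62.4 and 78.6 on controls and 209.3, 279.9 and 159.1 on treated arrays (log2 change 1.79 ± 0.30; limma adjusted p = 0.00123), and Sele was too dim to be tested. The co-stimulatory receptor Cd40 rose from 57.2, 75.4 and 27.1 to 229.2, 184.2 and 340.4.

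Treated array 3 was the highest treated array for Cxcl1 (2166, 2052 and 4433) and Il6 (577.3, 560.6 and 1183), genes for which control array 3 was the highest control. Both genes were picked with their values in view. The labels do not say whether cultures of the same number share an explant.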
